A study of Mus musculus with 4 samples.

Results

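The 40 genes described here are the cell cycle and DNA replication genes of alveolar type II cells: the D-type cyclins and their kinases, the inhibitors of these kinases with Rb1, and the genes of DNA synthesis, G2 and mitosis. They were chosen by gene symbol from a named list, and all 40 were found among the 25759 symbols of the count table. All 40 also passed the filter on low counts, which kept 13306 genes. Transcripts were counted by RNA sequencing in alveolar type II cells, the epithelial cells that make lung surfactant, taken from mice of the C57BL/6 strain at 14 weeks of age. The first group was 2 wild-type (WT) libraries. The second was 2 libraries from Sftpc-mTOR transgenic mice (mTOR Tg), in which an active form of the growth kinase mTOR is expressed conditionally. The name ties the transgene to Sftpc, the surfactant protein C gene of type II cells. How it was switched on is not stated in the labels. No treatment is named for either group. The sources used here do not give whether a library came from a single mouse or a pool, so the p-values measure the spread between these libraries, which may be technical.

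In the cell cycle, D-type cyclins bind the kinases CDK4 and CDK6 in response to growth signals and phosphorylate the retinoblastoma protein RB1, which releases E2F transcription factors. E2F then drives genes of DNA replication, and a later wave of genes, repressed in resting cells by the DREAM complex through promoter elements called CHR, drives G2 and mitosis. CDK inhibitors of the CIP/KIP and INK4 families oppose the kinases. mTOR complex 1 is known to promote growth in G1 and the translation of D-type cyclins, and adult type II cells are known to divide rarely unless the lung is injured. The comparison of mTOR Tg with WT asks which of these transcripts differ when mTOR is active.

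The promoters are shown first because the licensing group and the G2 and mitosis group differed in the matches to E2F and CHR elements found in them. The elements were searched after the values of the genes were seen. RefSeq promoter windows on GRCm38.p6, from 250 bases before to 50 bases after a start site, were at hand for 31 of the 40 genes, and the first listed start of each gene was searched on both strands. The E2F element was searched as TTTCCCGC, TTTCGCGC, TTTGGCGC or TTTGCCGC, the CHR element as TTTGAA or TTCGAA, and the binding box of the factor NF-Y as CCAAT. Overlapping matches on opposite strands were each kept. In the sequences below capitals mark any of these matches. Cdk4 stands for the D-type group, Mcm5 for replication licensing, and Cdk1 and Ccnb2 for G2 and mitosis.
Cdk4: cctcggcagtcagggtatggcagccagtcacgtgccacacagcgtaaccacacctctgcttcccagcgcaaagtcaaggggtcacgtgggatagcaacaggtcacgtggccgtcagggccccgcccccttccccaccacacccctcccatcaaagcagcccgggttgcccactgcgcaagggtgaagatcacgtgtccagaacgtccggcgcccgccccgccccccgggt
Mcm5: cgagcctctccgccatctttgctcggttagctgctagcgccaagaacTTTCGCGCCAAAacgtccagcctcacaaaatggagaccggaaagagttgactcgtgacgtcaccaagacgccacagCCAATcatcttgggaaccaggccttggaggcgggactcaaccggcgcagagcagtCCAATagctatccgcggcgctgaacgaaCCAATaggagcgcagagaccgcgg
Cdk1: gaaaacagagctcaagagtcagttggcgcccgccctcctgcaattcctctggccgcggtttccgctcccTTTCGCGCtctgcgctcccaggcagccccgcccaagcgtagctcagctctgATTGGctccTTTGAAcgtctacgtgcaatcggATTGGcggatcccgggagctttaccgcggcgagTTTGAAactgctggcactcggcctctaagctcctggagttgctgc
Ccnb2: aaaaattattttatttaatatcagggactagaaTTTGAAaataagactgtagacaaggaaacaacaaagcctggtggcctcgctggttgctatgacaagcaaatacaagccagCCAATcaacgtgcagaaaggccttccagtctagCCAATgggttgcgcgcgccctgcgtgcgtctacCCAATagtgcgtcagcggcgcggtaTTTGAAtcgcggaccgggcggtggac

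Each stretch runs from 200 bases before to 30 bases after the start. The stretches lie at chr10:127063335-127063564 on the plus strand for Cdk4, chr8:75109309-75109538 on the plus strand for Mcm5, chr10:69352883-69353112 on the minus strand for Cdk1 and chr9:70421525-70421754 on the minus strand for Ccnb2. The Cdk4 window held none of the 3 elements. Positions count from the start site, negative before it. The Mcm5 window held overlapping E2F matches on opposite strands at -153 to -146 and -149 to -142. Cdk1 had CHR matches at -71 to -66 and -15 to -10 and an E2F match at -131 to -124. Ccnb2 had 3 CCAAT boxes between CHR matches at -167 to -162 and 5 to 10. Among all 10202 tested genes with such a window, 4.03% held the E2F element, 13.5% the CHR element and 38.6% a CCAAT box. By group, E2F was matched in 6 of 7 licensing genes (all but Mcm2). It was matched in 1 of 11 G2 and mitosis genes (Cdk1) and in 1 of 3 genes of the E-type group (Cdk2). CHR was matched in 9 of the 11 G2 and mitosis genes (all but Ccnb1 and Birc5) and in 2 of 7 licensing genes. A CCAAT box was found in 10 of the 11 G2 and mitosis genes, 5 of 7 licensing genes and 3 of 5 clamp and nucleotide genes. It was also found in 1 of 3 genes of the E-type group, 1 of 2 inhibitors and 0 of 3 D-type group genes. Neither E2F nor CHR was matched in the windows of the 3 D-type group genes, the 2 inhibitors or the 5 clamp and nucleotide genes. A match is a match of letters and does not show binding. Only the exact words above were searched, so a window without a match may still hold a variant of the element. The first listed start is not always the outermost start of a gene. The E2f1 gene, on the minus strand, begins at 154569892, and its window, chr2:154569377-154569676, lies inside the gene. The lack of a match there does not cover the sequence before the gene. The searched windows of Cdk6, Cdkn2c, Cdc6 and Mcm7 also lie within their genes.

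**Figure D1:**
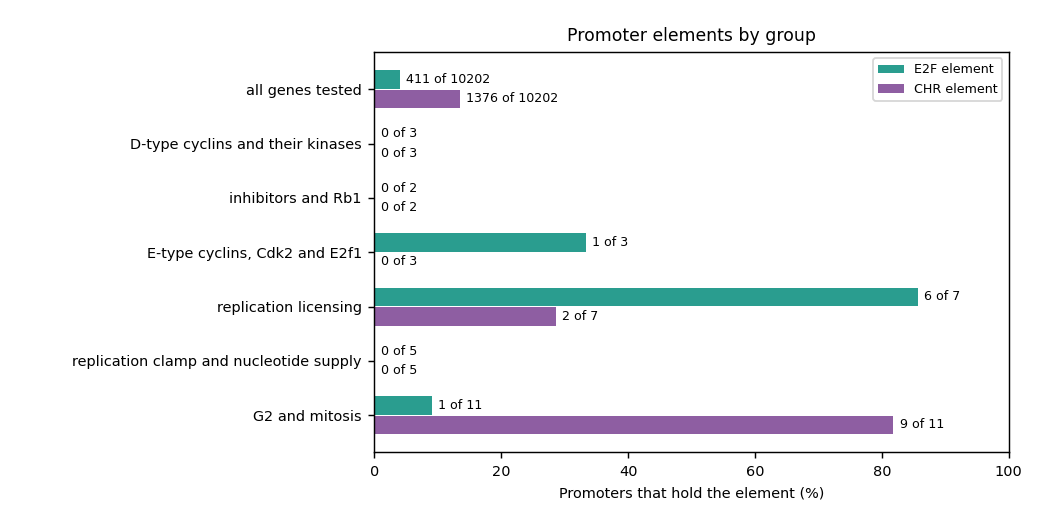
Bars give the percentage of promoter windows with a match to the E2F or the CHR words, for all tested genes with a window and for each group of cell cycle genes, with the numbers beside them. The E2F bar is longest for replication licensing (6 of 7) and the CHR bar for G2 and mitosis (9 of 11), against 4.03% and 13.5% of all tested genes.

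The libraries held between 18146693 and 21972124 counts, and the 40 genes took 0.0906% to 0.102% of them. Levels below are normalised CPM, that is, counts scaled to library sizes adjusted by TMM, and 3 counts in a library correspond to 0.137 to 0.165 CPM. Type II cell markers summed to 100600 to 126200 CPM on raw totals, with Sftpc alone at 63470 to 76120 CPM. Markers of airway club cells summed to 156700 CPM in mTOR Tg replicate 1 and to 53920 to 87800 CPM in the other libraries. The 14 leukocyte markers, among them Ptprc and Coro1a, summed to 0.110 to 1.04 CPM, with Cd3e, Ms4a1 and C1qb at 0 counts in all 4 libraries. The 8 endothelial markers summed to 120 and 132 CPM (WT) against 68.9 and 67.5 CPM (mTOR Tg). Larger sums came from ciliated cell markers, at 2377 and 2792 CPM (WT) against 3584 and 2181 CPM (mTOR Tg). Red cell markers summed to 2548 and 3683 CPM (WT) against 3235 and 1041 CPM (mTOR Tg). Alveolar type I markers were at 1883 and 1779 CPM (WT) against 2168 and 1998 CPM (mTOR Tg). The part of cell mixture in the results below was not tested, and in bulk RNA fewer cells of a type and less RNA per cell cannot be told apart. Mtor itself, whose counts are not known to separate the transgene from the mouse's own gene, had a log2 difference from the WT mean of -0.55 for mTOR Tg replicate 1 and 0.12 for replicate 2, so its RNA does not check the labels. The mTOR Tg pair was less alike than the WT pair: 14.6% of all tested genes lay over 2-fold apart within the mTOR Tg pair, against 1.98% within the WT pair.

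Ccnd1, Ccnd3 and Cdk4 were abundant, and most genes of DNA synthesis and mitosis were scarce in these cells. Per kilobase of longest transcript, averaged over the 4 libraries, Ccnd1 (cyclin D1) led at 88.2 CPM per kb, followed by the kinase gene Cdk4 at 41.3, the replication clamp gene Pcna at 39.98, the inhibitor gene Cdkn1c (p57) at 29.6 and Ccnd3 (cyclin D3) at 29.4. Of the 40 genes, 8 lay above the median of all tested genes, 6.37 CPM per kb. The other 3 of these were Cdkn1b at 14.5, Ccnd2 at 7.59 and Mcm7 at 6.79 CPM per kb. Of the 27 licensing, clamp, nucleotide, G2 and mitosis genes, 2 lay above it, Pcna and Mcm7. The G2 and mitosis group ran from 0.210 CPM per kb for Birc5 (survivin, a subunit of the chromosomal passenger complex) to 4.83 for Cdc20 (an activator of the anaphase-promoting complex), with a median of 0.643. The D-type group had a median of 29.4 CPM per kb, which is 45.7 times that of G2 and mitosis, although its member Cdk6 was at 0.654. The lowest of all was the helicase loader gene Cdc6 at 0.150 CPM per kb, from 14, 14, 13 and 16 counts.

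**Figure D2:**
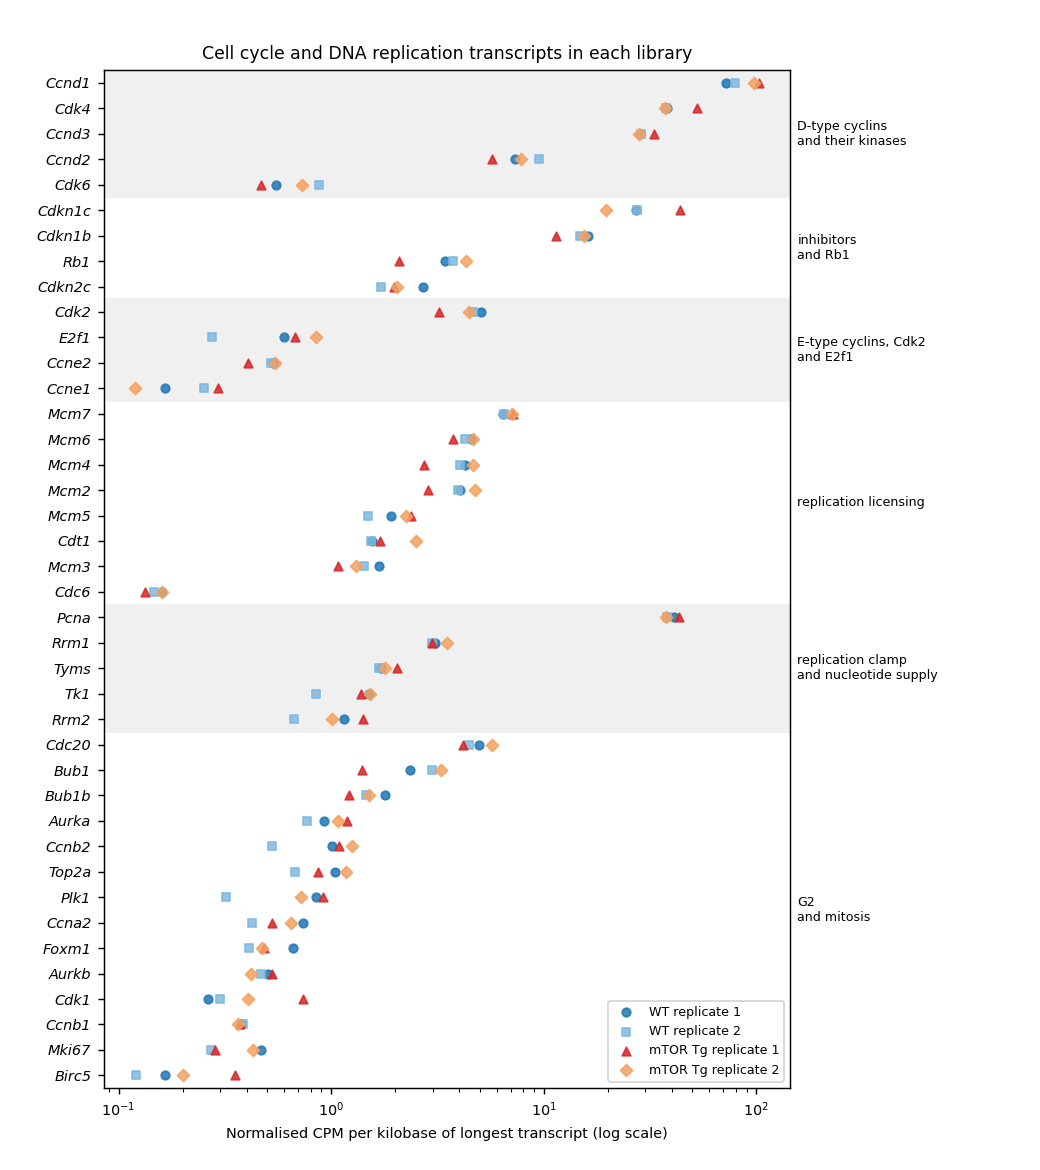
Each row is a gene and each point a library (circles and squares WT, triangles and diamonds mTOR Tg), plotted as normalised CPM per kilobase of longest transcript on a log axis, with rows ordered by mean level within each group. Ccnd1, Cdk4, Pcna, Cdkn1c and Ccnd3 sit furthest to the right, and most G2 and mitosis genes lie below 1 CPM per kb.

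None of the 40 genes passed the test between genotypes. The edgeR quasi-likelihood test with Benjamini-Hochberg adjustment over all 13306 genes called 0 genes higher and 0 lower in mTOR Tg (0% of genes in each direction), and the adjusted p of the 40 ran from 0.860 to 0.993. At an unadjusted p under 0.05 there were 0 of the 40 genes, against 327 (2.46%) of all genes, and limma-voom called 0 genes of the whole table. DESeq2 also called 0 of the 40, against 12 (0.0902%) of all genes, 0.0676% higher and 0.0225% lower. Of the fitted log2 fold changes 21 were positive and 19 negative, where 50.9% of all tested genes were positive, with a median of 0.03 against 0.01 over all tested genes. The fitted differences therefore spread around 0, from -0.38 for Mcm3 to 1.02 for Cdk1, with standard errors of 0.20 to 0.71. The transgenic libraries both exceeded the WT pair in 10 genes and were both under it in 3, where all tested genes gave 17.6% above and 17% below. The 13 genes make 32.5% of the 40, near the 34.6% of all tested genes. Both mTOR Tg libraries lay above the WT mean in 14 genes and below it in 7, against 26.5% and 25.8% of all tested genes. With 2 libraries against 2, no exact two-sided permutation test on 1 gene can give a p below 0.333.

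**Figure D3:**
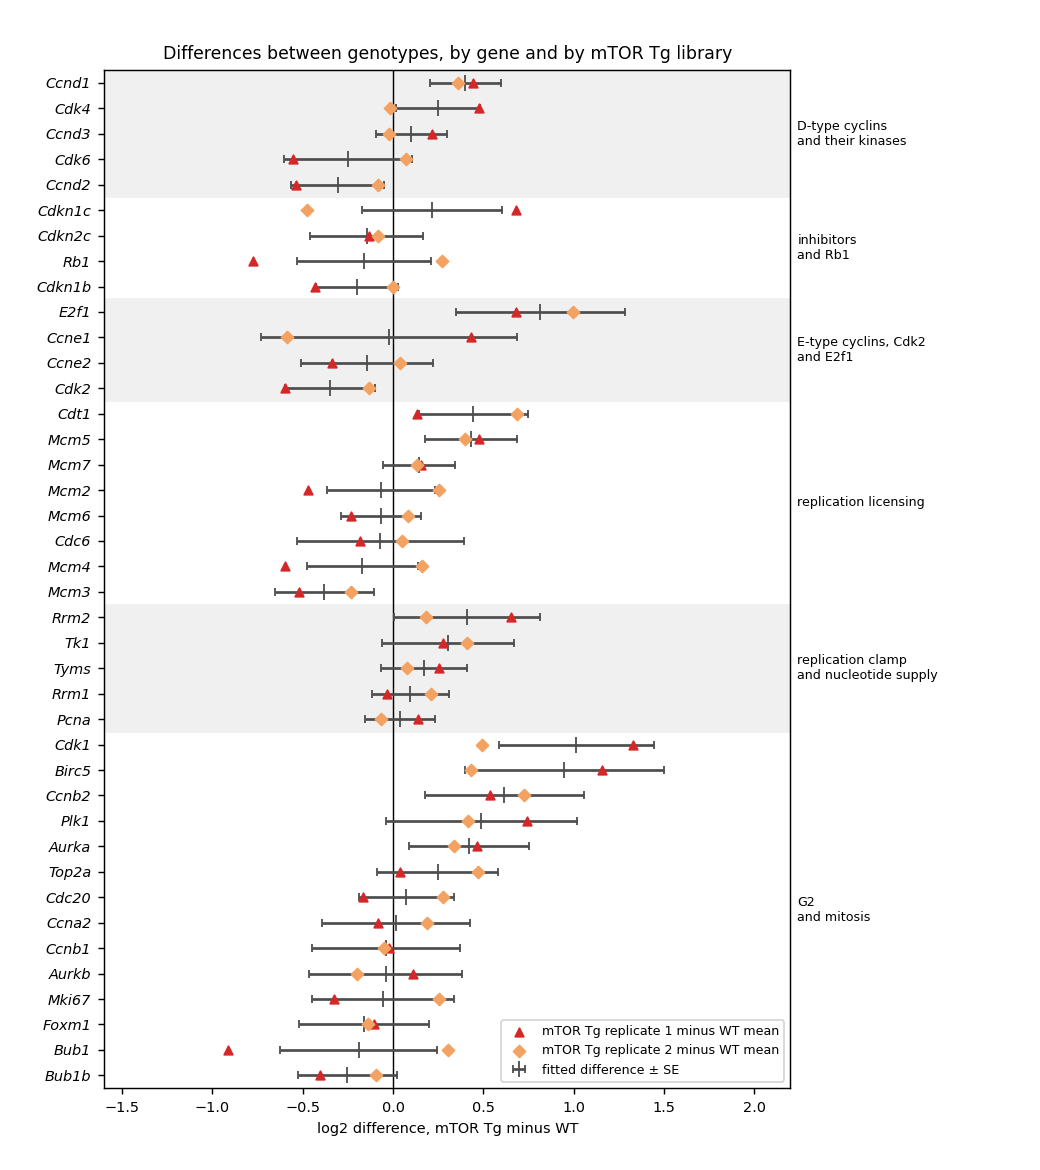
Each row is a gene, with the fitted log2 difference of mTOR Tg minus WT and its standard error as a tick and bar, and the difference of mTOR Tg replicate 1 (triangles) and replicate 2 (diamonds) from the WT mean. The mTOR Tg libraries lie on the same side of 0 for genes such as Ccnd1, E2f1, Cdk1 and Mcm3 and on opposite sides for Cdkn1c, Rb1 and Bub1.

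Among the D-type cyclins and their kinases, Ccnd1 was the gene whose mTOR Tg libraries both lay above WT. Ccnd1, which couples growth signals to CDK4 and CDK6, was at 270 and 298 normalised CPM in WT replicates 1 and 2 and at 386 and 365 CPM in mTOR Tg replicates 1 and 2. The groups did not overlap, and the gap between them was wider than the gap within either pair. Its log2 fold change was 0.40 (SE 0.20, edgeR adjusted p = 0.860), and after removal of each library's trend with transcript length and GC content it was 0.39 (SE 0.13, edgeR adjusted p = 0.914). Ccnd3 was at 109 and 110 CPM (WT) against 127 and 108 CPM (mTOR Tg), so that replicate 1 stood above the other libraries. Ccnd2 (cyclin D2) was at 46.2 and 60.0 CPM (WT) against 36.2 and 49.6 CPM (mTOR Tg), with overlapping groups. As a share of the D-type cyclins per kilobase, Ccnd1 made up 67.0% and 67.7% in WT and 72.7% and 73.2% in mTOR Tg. This share was computed after the values were seen and is given as a description. The ratio of Ccnd1 to Ccnd3, which have transcripts of 3.74 and 3.86 kb, was 2.56 and 2.79 (WT) against 3.13 and 3.49 (mTOR Tg).

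The kinases of the D-type cyclins were far apart in level. Cdk4 was at 77.8 and 77.2 CPM (WT) against 108 and 76.5 CPM (mTOR Tg), so the difference lay in mTOR Tg replicate 1 alone. Cdk6, which encodes the other D-type kinase, was at 6.31 and 10.1 CPM (WT) against 5.40 and 8.38 CPM (mTOR Tg), with a WT pair about as far apart as the mTOR Tg pair. Per kilobase Cdk4 exceeded Cdk6 by 69.2 and 43.1 times in WT and by 112 and 51.2 times in mTOR Tg. The Ccnd1 gene lies on chromosome 7 from 144929931 to 144939925 and Cdk4 on chromosome 10 from 127063534 to 127067920 (GENCODE M21, GRCm38). Exons of 11 of the 40 genes overlap those of another protein-coding gene, among them Ccnd1 (LTO1 on the other strand), Ccnd3 (Bysl), Cdk4 (Tspan31), Cdk2 (Pmel) and Mcm7 (Ap4m1 and Cops6). The labels do not state whether counting used strand, so reads of such pairs may not be told apart.

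**Figure D4:**
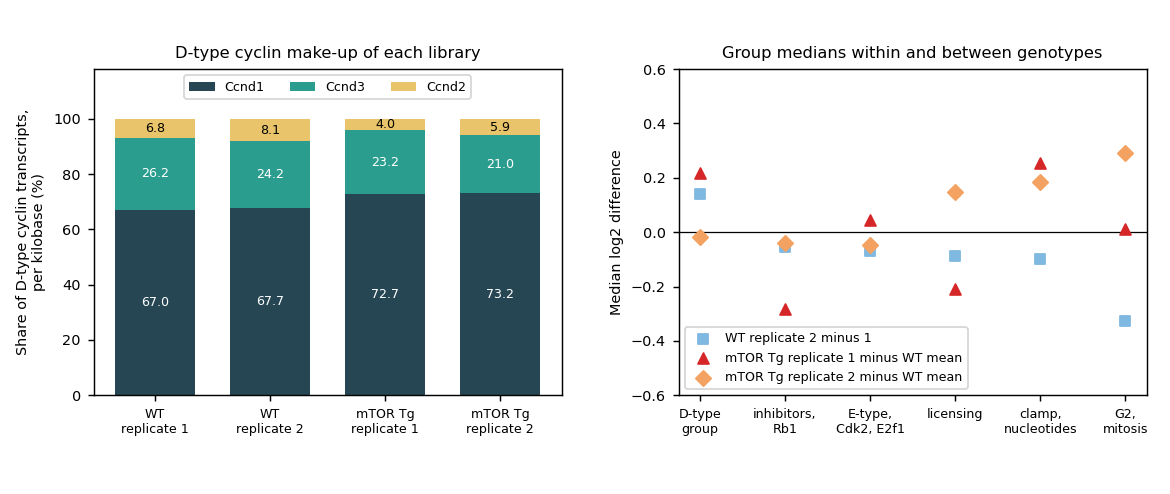
Left, stacked bars give the percentage of D-type cyclin transcripts per kilobase that Ccnd1, Ccnd3 and Ccnd2 make up in each library, where Ccnd1 takes 67.0% and 67.7% in WT and 72.7% and 73.2% in mTOR Tg. Right, points give the median log2 difference of each gene group for mTOR Tg replicates 1 and 2 against the WT mean and for WT replicate 2 minus WT replicate 1, with G2 and mitosis at -0.33 within the WT pair.

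The inhibitors and Rb1 showed no common direction, and the mTOR Tg libraries went opposite ways in Cdkn1c and Rb1. Cdkn1c, an imprinted gene for the CIP/KIP inhibitor p57, was at 51.6 and 52.5 CPM in WT, 83.6 CPM in mTOR Tg replicate 1 and 37.4 CPM in replicate 2. The WT libraries lay between the mTOR Tg libraries, with a log2 fold change of 0.22 (SE 0.39). After removal of the trends with length and GC content this fold change was -0.17 (SE 0.22). The difference of mTOR Tg replicate 1 from the WT mean then fell from 0.68 to 0.10, and that of replicate 2 was -0.50. Without mTOR Tg replicate 2 Cdkn1c was called higher (0.68, SE 0.12, edgeR adjusted p = 7.86e-05) and in the fit that dropped mTOR Tg replicate 1 the call was lower (-0.48, SE 0.13, edgeR adjusted p = 0.0482). Fits with a library left out assume that the lone library of its group varies like the other group. Rb1, the gene of the pocket protein that holds E2F, was at 16.0 and 17.4 CPM (WT) against 9.71 and 20.1 CPM (mTOR Tg). Cdkn1b, which encodes the inhibitor p27, was at 73.8 and 67.3 CPM (WT) against 52.3 and 70.6 CPM (mTOR Tg). Cdkn2c, which encodes the INK4 inhibitor p18, was at 6.70 and 4.25 CPM against 4.86 and 5.03 CPM. Over the 4 genes the median log2 fold change was -0.15, from a median of -0.28 in mTOR Tg replicate 1 and -0.04 in replicate 2. It turned to 0.04 without WT replicate 1, and leaving out mTOR Tg replicate 1 gave -0.06 where leaving out replicate 2 gave -0.30.

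E2f1, the transcription factor gene of the G1 to S transition, was low in every library. It had 30 and 15 counts (WT) against 38 and 49 counts (mTOR Tg), or 1.65, 0.758, 1.86 and 2.35 CPM. Both mTOR Tg libraries lay above WT, but WT replicate 1 was nearer to mTOR Tg replicate 1 than to WT replicate 2. The log2 fold change was 0.81 (SE 0.47, edgeR adjusted p = 0.860), and the exact Poisson 95% intervals of the counts, which cover counting error only, were 20.2 to 42.8 and 8.40 to 24.7 in WT and 26.9 to 52.2 and 36.3 to 64.8 in mTOR Tg. Cdk2, the kinase of the E-type and A-type cyclins, was at 16.5 and 15.2 CPM (WT) against 10.5 and 14.5 CPM (mTOR Tg), below WT in both. Its log2 fold change was -0.35 (SE 0.25). The E-type cyclin genes, whose products activate CDK2, were rare: Ccne1 had 6 and 10 counts (WT) against 12 and 5 (mTOR Tg), and Ccne2 had 29 and 31 (WT) against 25 and 34 (mTOR Tg).

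The licensing genes load the MCM helicase on replication origins in G1. Transcripts of its 6 subunits were unequal per kilobase, with Mcm7 at 6.79 CPM per kb, Mcm6 at 4.31, Mcm4 at 3.94, Mcm2 at 3.90, Mcm5 at 2.003 and Mcm3 at 1.37, averaged over the 4 libraries. Mcm7 was above WT in both mTOR Tg libraries but by little, at 19.0 and 19.2 CPM (WT) against 21.2 and 21.0 CPM (mTOR Tg). Mcm5 was at 6.48 and 5.05 CPM (WT) against 7.997 and 7.565 CPM (mTOR Tg), for a fitted log2 difference of 0.43 (SE 0.26, adjusted p = 0.860 by edgeR). Mcm3 went the other way, at 5.77 and 4.90 CPM (WT) against 3.68 and 4.50 CPM (mTOR Tg). The side on which the mTOR Tg libraries lay thus differed between subunits of 1 complex, none of them called with all 4 libraries. Of all tested genes, 34.6% had mTOR Tg libraries both above or both below the WT pair. With the trends in length and GC content removed, Mcm5 and Mcm3 kept their sides of the WT mean and Mcm7 did not. The Mcm7 differences were then -0.119 (replicate 1) and 0.125 (replicate 2). Mcm2, Mcm4 and Mcm6 lay below WT in mTOR Tg replicate 1 and above it in replicate 2. Mcm4, for example, was at 15.4 and 14.6 CPM (WT) against 9.86 and 16.8 CPM (mTOR Tg). Cdt1, which brings MCM to the origin, was at 4.17 and 4.14 CPM (WT) against 4.56 and 6.75 CPM (mTOR Tg). Once the length and GC trends were removed, its differences from the WT mean were -0.299 (replicate 1) and 0.669 (replicate 2). The group median was -0.07, with -0.21 for mTOR Tg replicate 1 and 0.15 for replicate 2, where 7 of the 8 genes lay above the WT mean, and it turned to 0.15 without mTOR Tg replicate 1.

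The clamp and nucleotide genes had positive fitted changes in 5 of 5, with a median of 0.17, and none passed the test. All tested genes were positive in 50.9%, and the count was 3 of 5 without WT replicate 2 and 4 of 5 without either mTOR Tg library, with library size only or with the offsets for length and GC content. Against the WT mean, replicate 1 of mTOR Tg had a median of 0.25 and replicate 2 of 0.18, while WT replicate 1 lay above WT replicate 2 in all 5 genes. Tyms, for thymidylate synthase, was at 6.70 and 6.52 CPM (WT) against 7.90 and 6.99 CPM (mTOR Tg) and was the 1 gene of the group whose mTOR Tg libraries both lay above WT. Pcna was nearly level, at 61.9 and 57.9 CPM (WT) against 65.9 and 57.1 CPM (mTOR Tg). The small subunit of ribonucleotide reductase, Rrm2, was at 2.53 and 1.47 CPM (WT) against 3.09 and 2.202 CPM (mTOR Tg). Rrm1, its large subunit, was at 16.9 and 16.4 CPM against 16.3 and 19.3 CPM. Thymidine kinase, Tk1, was at 3.73 and 2.12 CPM (WT) against 3.43 and 3.78 CPM (mTOR Tg). Leaving out WT replicate 2, the lower library of the WT pair, moved the group median from 0.17 to 0.07.

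Genes of G2 and mitosis had low counts, and 4 of the 14 had both mTOR Tg libraries above WT: Cdk1, Birc5, Ccnb2 and Aurka. Among all tested genes 17.6% did, and 1 of the 14, Ccnb1, had both below, against 17% of all. Cdk1, the kinase that starts mitosis, had 21 and 26 counts (WT) against 66 and 37 counts (mTOR Tg), or 1.15, 1.31, 3.24 and 1.77 CPM. The mTOR Tg libraries were themselves apart, and the exact Poisson 95% interval of the WT replicate 2 count, 17.0 to 38.1, overlapped that of mTOR Tg replicate 2, 26.1 to 51.0. The log2 fold change of Cdk1 was 1.02 (SE 0.43, edgeR adjusted p = 0.860, unadjusted p = 0.0585), the largest fitted increase among the 40 genes, and it came to 0.52 with mTOR Tg replicate 1 left out and 1.39 with replicate 2 left out (edgeR adjusted p = 0.783 and 0.00404). Birc5 had 10 and 8 counts (WT) against 24 and 14 (mTOR Tg). Ccnb2 (cyclin B2) had 28 and 16 counts (WT) against 34 and 40 (mTOR Tg), and the mitotic kinase gene Aurka had 32 and 29 (WT) against 46 and 43 (mTOR Tg). The cyclin B1 gene Ccnb1, whose product also partners CDK1, had 17 and 19 counts (WT) against 19 and 19 (mTOR Tg). Its normalised levels of 0.933 and 0.960 CPM (WT) against 0.932 and 0.910 CPM (mTOR Tg) were nearly level, with all 4 counts between 17 and 19.

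In the other G2 and mitosis genes, among them the usual markers of dividing cells, the genotypes overlapped. Mki67, which encodes the proliferation antigen Ki-67, was at 4.72 and 2.73 CPM (WT) against 2.85 and 4.31 CPM (mTOR Tg), so that each genotype had a higher and a lower library. Top2a, for the topoisomerase that untangles chromosomes, was at 5.43 and 3.54 CPM (WT) against 4.51 and 6.13 CPM (mTOR Tg). Ccna2 (cyclin A2) was at 2.196 and 1.26 CPM against 1.57 and 1.92 CPM, and Plk1, a mitotic kinase gene, at 1.87 and 0.708 CPM against 2.01 and 1.58 CPM. Foxm1, the transcription factor gene of the late wave, was at 3.08 and 1.92 CPM (WT) against 2.26 and 2.202 CPM (mTOR Tg). Bub1, a kinase gene of the spindle checkpoint, was at 8.02 and 10.2 CPM in WT, 4.76 CPM in mTOR Tg replicate 1 and 11.2 CPM in replicate 2. Bub1b, for the checkpoint protein BUBR1, was at 6.59 and 5.36 CPM (WT) against 4.46 and 5.55 CPM (mTOR Tg). Cdc20 was at 8.89 and 7.99 CPM against 7.51 and 10.2 CPM, and Aurkb, of the chromosomal passenger complex, had 18 and 18 counts (WT) against 21 and 17 (mTOR Tg).

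The WT libraries also differed from each other in these genes. Over the 40 genes the gap within mTOR Tg was wider than that within WT in 25 genes, and among all tested genes in 79.3%; these shares were not tested against each other. WT replicate 1 lay above WT replicate 2 in 11 of the 14 G2 and mitosis genes, with a median of -0.33 for replicate 2 minus replicate 1, against 0.00 (to 2 decimals) over all tested genes, of which 50.2% were higher in replicate 1. The 14 genes summed to 47.7 and 39.6 CPM in WT and to 40.2 and 51.3 CPM in mTOR Tg, so the genotypes overlapped. The median log2 fold change of the group was 0.04 with all libraries, with 0.01 for mTOR Tg replicate 1 and 0.29 for replicate 2, and it was 0.42 without WT replicate 1 and -0.03 without WT replicate 2. Relative to the D-type group per kilobase, G2 and mitosis transcripts came to 11.0% and 8.69% in WT and 7.26% and 10.3% in mTOR Tg, with overlapping groups. Of the 40 genes, 15 had fewer than 50 counts in some library, and 9 of these belong to G2 and mitosis.

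Transcript length moved with the differences of mTOR Tg replicate 1. Over all tested genes with a length, the median difference of this library from the WT mean ran from 0.43 in the shortest quartile (up to 2197 bases) to -0.53 in the longest, while that of replicate 2 stayed within 0.003 of 0. In replicate 1 the cell cycle genes had medians of 0.47 for the 9 shortest, 0.14 for the next 12, -0.32 for the next 14 and -0.33 for the 5 longest. In replicate 2 the same 4 sets had medians of -0.02, 0.29, 0.08 and 0.21. After removal of the trends with length and GC content, 24 of the 40 fitted changes were positive and 16 negative, where 46.8% of all tested genes were positive. Cdk4 then had a log2 fold change of 0.01, Cdkn1b of 0.00 and Ccnd2 of -0.07, against 0.25, -0.20 and -0.31 before. Cdk1 was at 1.15 (SE 0.46, edgeR adjusted p = 0.914) after it, Birc5 at 0.96 and E2f1 at 0.62. Bub1 had differences from the WT mean of -0.63 in replicate 1 and 0.34 in replicate 2 after the correction, so the mTOR Tg libraries stayed on opposite sides of WT.

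**Figure D5:**
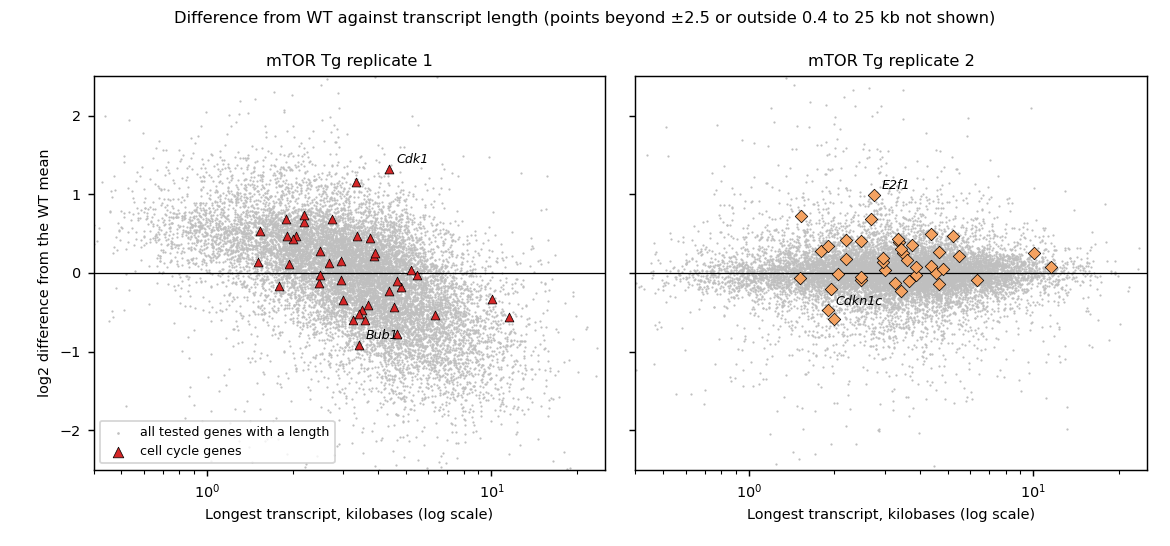
Each point is a gene, plotted by longest transcript length in kilobases (log axis) and log2 difference from the WT mean in mTOR Tg replicate 1 (left) and replicate 2 (right), with all tested genes in grey and the cell cycle genes outlined. In replicate 1 the cloud slopes from 0.43 in the shortest quartile to -0.53 in the longest, and in replicate 2 it is flat.

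With a library left out, calls followed the library that remained. Without mTOR Tg replicate 2, 11 of the 40 genes were called (4 higher, 7 lower), against 47.1% of all tested genes (22.6% higher, 24.6% lower). Those higher were Ccnd1, Cdk4, Cdkn1c and Cdk1, and those lower were Ccnd2, Cdkn1b, Rb1, Cdk2, Mcm2, Mcm4 and Bub1. Without mTOR Tg replicate 1, Cdkn1c alone of the 40 was called, lower, against 2.5% of all tested genes (1.4% higher, 1.1% lower). None of the 40 was called without WT replicate 1, where 0.0601% of all genes were called, all of them higher, or without WT replicate 2, where 0.0902% were called (0.0676% higher, 0.0225% lower). Such calls hold no replication of the group with 1 library.

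A further 130 genes of the pathway were examined for context, of which 123 were tested, and edgeR called 0 higher and 0 lower, with an adjusted p of at least 0.860 and 1 gene at an unadjusted p under 0.05. Their fitted changes were positive in 57 and had a median of -0.01, where 50.9% of all tested genes were positive, with a median of 0.01. Each list is given by its 2 most abundant genes. Of the replication fork list, 19 of 28 changes were positive (median 0.12), with the clamp loader gene Rfc2 at 42.5 and 43.4 CPM (WT) against 75.8 and 44.2 CPM (mTOR Tg), and the maintenance methyltransferase gene Dnmt1 at 43.9 and 46.04 CPM against 39.6 and 47.0 CPM. Origin and helicase genes were positive in 5 of 13 (median -0.09), with the origin recognition gene Orc4 at 20.6 and 20.3 CPM (WT) against 15.5 and 19.8 CPM (mTOR Tg) and the GINS subunit gene Gins4 at 17.2 and 16.7 CPM against 24.4 and 18.1 CPM. Spindle and cytokinesis genes were positive in 13 of 23 (median 0.07), with the checkpoint gene Bub3 at 50.8 and 43.3 CPM against 51.7 and 44.0 CPM and the securin gene Pttg1 at 33.87 and 29.97 CPM against 45.7 and 31.6 CPM. In each of these 6 genes mTOR Tg replicate 1 lay outside the range of the other 3 libraries, by the least in Bub3. The share of all tested genes in which it did so was not counted. Over all tested genes the median absolute log2 gap was 0.45 within mTOR Tg and 0.14 within WT.

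Condensin and cohesin genes were negative in 8 of 10 (median -0.20), from a median of -0.51 for mTOR Tg replicate 1 and 0.10 for replicate 2. Their median transcript length was 4.66 kb, against 3.38 kb over all tested genes. In mTOR Tg replicate 1 all genes of the third length quartile (up to 4822 bases) had a median of -0.12 and those of the longest -0.53. The part of length in this list was not tested. The cohesin gene Stag2 was at 120 and 128 CPM (WT) against 57.2 and 121 CPM (mTOR Tg). Its partner Rad21 was at 101 and 100 CPM (WT) against 66.0 and 110 CPM (mTOR Tg), so both were lowest in mTOR Tg replicate 1. In the list of CDK phosphatases, kinases and CKS subunits (median -0.10, positive in 4 of 10) the phosphatase gene Cdc25b was at 29.9 and 24.9 CPM (WT) against 22.6 and 32.6 CPM (mTOR Tg), and Mnat1, of the CDK-activating kinase, at 19.7 and 20.9 CPM against 26.6 and 18.2 CPM. E2F and DREAM genes (median -0.11, positive in 4 of 15) were led by E2f4, at 39.7 and 49.1 CPM (WT) against 57.2 and 47.4 CPM (mTOR Tg), and E2f2, at 51.5 and 43.0 CPM against 60.05 and 33.95 CPM. Of the ubiquitin ligase list (median -0.07, positive in 5 of 14), Skp1a, the adaptor of SCF ligases, was at 160 and 161 CPM (WT) against 220 and 179 CPM (mTOR Tg), and Anapc5, of the anaphase-promoting complex, at 123 and 123 CPM against 132 and 117 CPM. Further inhibitors and targets of p53 were positive in 5 of 10 (median 0.06). The antiproliferative gene Btg2 was at 214 and 225 CPM (WT) against 201 and 146 CPM (mTOR Tg), and its relative Btg1 at 125 and 114 CPM against 135 and 88.4 CPM. Both were lowest in mTOR Tg replicate 2. Cdkn2a, for the INK4 inhibitor p16 and for ARF, had 0 counts in all 4 libraries, against a floor of 3 counts or 0.137 to 0.165 CPM. Cks2, a CDK-binding subunit gene named after its values were seen, was the 1 further gene with an unadjusted p under 0.05, at 2.86 and 2.48 CPM (WT) against 4.91 and 4.21 CPM (mTOR Tg), for a fitted log2 difference of 0.77 (SE 0.28, adjusted p = 0.860 by edgeR).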

How the data were processed

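The deposited values were raw read counts, whole numbers for each of 25759 symbols in 4 libraries. HISAT2, edgeR and the build mm10 are named in the submitters' processing notes, without versions, settings or the counting program. Columns were matched to samples by the names in the labels. Reads carry no molecular identifiers here, so intervals and floors cover counting error only.

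Counts entered edgeR 4.0.16 (R 4.3.3). The filter filterByExpr, by genotype and with a minimum count of 10, retained 13306 genes and 99.95% of the counts. TMM factors were 0.928 to 1.041. The quasi-likelihood test (glmQLFit, legacy off, then glmQLFTest) had genotype as its only term. Adjustment was by Benjamini-Hochberg over all genes tested, and calls needed an adjusted p under 0.05. The SE is the log2 fold change over the square root of F. Differences of single libraries are on log2 CPM with a prior count of 2. Length is that of the longest GENCODE M21 transcript, at hand for all 40 genes and 13137 tested genes. The filter, the TMM scaling and the edgeR test ran first on simulated counts with 200 changed genes, and the other steps did not.

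The 40 genes and the other lists were chosen with earlier results of these data known. All 40 are named, as are the 2 most abundant genes of each further list by normalised CPM. Alternatives were DESeq2's size factors, unscaled totals or upper-quartile factors, no filter, a minimum count of 50, DESeq2 1.42.0, limma-voom (limma 3.58.1), robust dispersions, offsets for length and GC content (splines of 4 degrees of freedom), a replicate block with and without those offsets, and each library left out.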

Additional observations from a re-analysis of the deposited data

How the results depend on the processing

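The edgeR test called 0 genes under each other scaling, filter and dispersion setting tried and with the offsets, limma-voom also called 0, and every fit that kept all 4 libraries called 0 of the 40 cell cycle genes. DESeq2 called 12 of all genes. The genotypes share replicate numbers, but the labels do not say that these pair the libraries, so they were not taken as pairs. The correlation across genes of replicate 1 minus replicate 2 between the genotypes was 0.071 (13306 genes, 2 pairs). It cannot decide on pairing, because the mTOR Tg difference holds the length trend of mTOR Tg replicate 1. With the replicate number as a block 37 genes were called, and 2 with the block and the offsets together. With each library left out in turn the calls ran from 8 to 6273 of all genes, from 0 to 11 of the 40 and from 0 to 40 of the 123 further genes, the highest each time without mTOR Tg replicate 2. Group medians then ran from -0.019 to 0.216 for D-type cyclins, -0.3 to 0.035 for inhibitors, -0.212 to 0.082 for E-type cyclins, -0.221 to 0.149 for licensing, 0.067 to 0.24 for clamp and nucleotides and -0.025 to 0.425 for G2 and mitosis. The D-type median was lowest and the licensing median highest without mTOR Tg replicate 1, and the other end of each, with the lowest inhibitor median, came without mTOR Tg replicate 2. The inhibitor and G2 and mitosis medians were highest and the E-type median lowest without WT replicate 1, while the E-type median was highest and the clamp and G2 and mitosis medians lowest without WT replicate 2. Of the 56 named genes 21 kept their sign in every setting, among them Ccnd1, Cdk1, Mcm5, Mcm3, E2f1 and Cdk2. The others, all uncalled with the 4 libraries, changed sign as follows (log2 fold changes). With library size only they were Pcna -0.029, Ccna2 -0.037, Bub3 -0.042, Cdc25b -0.035, Anapc5 -0.055, with upper-quartile factors Ccne1 0.009, E2f2 0.031, with limma-voom Cdc25b -0.006 and with the block Cdc25b -0.005. With the offsets, alone and then with the replicate block, they were Ccnd3 -0.004 and -0.004, Cdk6 0.16 and 0.175, Cdkn1b 0.001 and 0.003, Cdkn1c -0.169 and -0.2, Rb1 0.045 and 0.019, Ccne2 0.075 and 0.074, Cdc6 0.038 and 0.04, Mcm6 0.04 and 0.04, Pcna -0.074 and -0.074, Mki67 0.272 and 0.339, Cdc20 -0.148 and -0.216, Orc4 0.109 and 0.105, Dnmt1 0.034 and 0.034, Cdc25b -0.1 and -0.146, E2f4 -0.035 and -0.029, Btg1 0.22 and 0.126, Anapc5 -0.085 and -0.085. With a library left out the ranges were Ccnd3 -0.023 to 0.216, Cdk4 -0.019 to 0.477, Cdk6 -0.605 to 0.126, Cdkn1b -0.434 to 0.001, Cdkn1c -0.475 to 0.683, Cdkn2c -0.438 to 0.217, Rb1 -0.78 to 0.269, Ccne1 -0.798 to 0.479, Ccne2 -0.363 to 0.044, Cdc6 -0.207 to 0.055, Mcm2 -0.476 to 0.254, Mcm4 -0.601 to 0.163, Mcm6 -0.236 to 0.085, Pcna -0.07 to 0.138, Rrm1 -0.031 to 0.213, Tk1 -0.049 to 0.762, Mki67 -0.399 to 0.389, Top2a -0.03 to 0.587, Ccna2 -0.332 to 0.461, Cdc20 -0.168 to 0.281, Aurkb -0.218 to 0.12, Bub1 -0.939 to 0.295, Plk1 -0.056 to 1.334, Foxm1 -0.462 to 0.213, Dnmt1 -0.184 to 0.062, Bub3 -0.095 to 0.142, Pttg1 -0.016 to 0.517, Rad21 -0.606 to 0.126, Cdc25b -0.274 to 0.251, Mnat1 -0.162 to 0.392, E2f2 -0.476 to 0.347, Btg1 -0.436 to 0.175, Anapc5 -0.079 to 0.096. The cause of these changes was not tested. A minimum count of 50 left 26 of the 40 genes, so 14 had no value there, and depth limits most G2 and mitosis genes.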

Other observations

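Genes with the same promoter elements were also looked at as values over the whole table. The 411 tested genes with an E2F element had a median log2 fold change of -0.03, with -0.02 in mTOR Tg replicate 1 and 0.01 in replicate 2, and 46.2% were positive. The 1376 tested genes with a CHR element had a median of 0.03, with 0.04 and 0.01, and 52.3% were positive. Within the cell cycle genes the 8 with an E2F element had medians of -0.03 and 0.11 in mTOR Tg replicates 1 and 2, and the 11 with a CHR element had 0.04 and 0.30. Over all 10202 tested genes with a promoter window the medians were 0.02 and -0.00.

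The median absolute log2 gap of the 40 genes was 0.16 within WT and 0.32 within mTOR Tg, and over all tested genes it was 0.14 and 0.45. Without mTOR Tg replicate 1, Btg2 was called lower in mTOR Tg (log2 fold change -0.59, SE 0.12, edgeR adjusted p = 0.00458). That fit has 1 mTOR Tg library, and it called 2.5% of all tested genes, 1.1% lower, and 1 of the 123 further pathway genes.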
